A study of Mus musculus with 8 samples.

Results

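The Rab genes encode the largest branch of the Ras-like small GTPases. They were taken as the protein-coding rows of the count table whose symbol is Rab followed by a number and at most a letter and a further digit, which gave 59 of 55416 rows and 59 of 21646 protein-coding ones. A Rab protein switches between a GDP-bound form, held in the cytosol by a GDP dissociation inhibitor, and a GTP-bound form on a membrane, where it recruits effectors such as tethers, motor adaptors and vesicle docking factors. Guanine nucleotide exchange factors turn it on, GTPase-activating proteins turn it off, and lipid groups added to its carboxy end anchor it. In neurons, Rab proteins are known for the release and refilling of synaptic vesicles, for receptor recycling in dendrites and for transport along the axon.

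The libraries hold polyadenylated RNA from mouse cerebral cortex, 4 from animals labelled AGO2_L192P/+ (L192P) and 4 from wild-type animals (WT). L192P animals carry 1 knock-in allele of Ago2, the gene of the miRNA-binding protein Argonaute 2, with a substitution that was also identified in patients with the developmental disorder LESKRES. This allele was made by CRISPR/Cas9 in C57BL/6JUke zygotes, carries a silent change of the guide's PAM beside the substitution, and was bred from founders crossed to C57/Bl6 wild-type mice. Every cell of the animal carries it, and the age and sex of the mice are not given in the sources used here. The comparison asked which Rab transcripts differ in abundance between both genotypes.

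Totals ran from 20396357 to 43575900 counts per library. The libraries labelled replicate 1 stood apart from the other 6: Ddx3y, on the Y chromosome, had 1631 counts in L192P replicate 1, 1714 in WT replicate 1 and 0 elsewhere, while Xist had 1 and 2 counts there and 4556 to 11536 elsewhere. Each genotype has 1 such library, with the counts of male tissue, and the other 6 have those of female tissue. Fits on the libraries numbered 2 to 4 are given where they change a call. Ago2 itself had 2398, 2273, 2273 and 2222 normalized counts in L192P replicates 1 to 4 and 2380.3, 2083, 2207 and 2316 in WT, so the groups overlapped and the log2 fold change was 0.03 (standard error, SE, 0.06, DESeq2 adjusted p 0.968). Normalized counts are scaled by the size factor that DESeq2 gives a library, and counts per gene cannot show the substitution. The labels do not say whether each library comes from its own animal, so p-values measure the spread between these libraries.

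All 59 Rab genes had at least 1 count, and 55 passed the filter on low counts and were tested. Rab17, Rab19, Rab25 and Rab44, of which Rab17 and Rab25 are known from epithelial cells, had between 0 and 9 counts in any library and were not tested. Of the 55, 32 had a mean of at least 1000 normalized counts and 9 a mean under 100. All Rab genes together took 0.762% ± 0.031 of the counts in L192P and 0.767% ± 0.030 in WT (SD, n = 4), and the 5 members with most counts held 45.8% of them. Exonic bases are shared with another annotated gene for 34 of the 59, 31 of them with a gene on the other strand, as for Rab3a, Rab6a and Rab10, and the counts of these members are uncertain to that extent. In bulk tissue, fewer cells of a type and less RNA per cell cannot be told apart.

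Per kilobase of exon, Rab3a, the synaptic vesicle Rab that acts in regulated transmitter release, had the highest level, 5019.8 ± 118 normalized counts per kb over the 8 libraries (SD). Rab6a and Rab6b, which act in transport between the Golgi, endosomes and the endoplasmic reticulum, followed at 3884 ± 267 and 3741 ± 231. Those 2 did not differ beyond their spread, with ranges of 3463 to 4251 and 3364 to 4081. Rab2a, a Rab of the early secretory pathway, was at 1875 ± 107 (1723 to 2019) and Rab15 at 1566 ± 207 (1288 to 1848). The range of Rab15 overlapped that of Rab2a and enclosed those of Rab7, the late endosome and lysosome Rab, and Rab1a, a Rab of transport from the endoplasmic reticulum to the Golgi, at 1458 to 1616 and 1443 to 1628. The order below Rab3a depended on the exon length used. With the length of the canonical transcript, an alternative chosen after the values were seen, Rab6b came next at 5655, then Rab6a at 5040.4 and Rab7 at 4381, while Rab15 kept rank 5 at 2502 normalized counts per kb.

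Rab15 was the Rab gene that fell in L192P cortex. Rab15 (ENSMUSG00000021062, GRCm39 chromosome 12, 76844732 to 76869699, minus strand) is a brain-rich Rab of early and recycling endosomes, known for slowing receptor uptake and for steering recycling through its effector, the product of Rep15. It had 7711, 7447, 6901 and 7559 normalized counts in L192P replicates 1 to 4 and 8928, 9345, 9330.2 and 9904 in WT. The groups did not overlap, with 1217 normalized counts between the highest L192P and the lowest WT library, and L192P replicate 3 was the lowest of all. The means were 7404 ± 353 and 9377 ± 401 (SD, n = 4). The log2 fold change was -0.34 with an SE of 0.057 (95% interval -0.45 to -0.23), a change of -21.0%, with a DESeq2 adjusted p of 3.0e-06 over all 18627 genes tested. The exact permutation test, two-sided on normalized counts, gave p = 0.0286, the smallest that 4 against 4 allow. That test sets aside the replicate numbers. An exact two-sided permutation test within the 4 same-numbered pairs gave p = 0.125, the smallest that 4 pairs allow. Groups that do not overlap fix both permutation p-values at these smallest values. Rab15 was also known from earlier results of these data to be among the genes passing, so neither p-value is separate support.

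Because the groups did not overlap, Rab15 was bound to be lower in L192P in any pairing of the libraries. The same-numbered pairs therefore show only the size of the difference. L192P was -13.6%, -20.3%, -26.0% and -23.7% from WT in the libraries numbered 1 to 4, so the pair numbered 1 had the smallest difference. As a share of all Rab counts, Rab15 took 4.02% ± 0.072 in L192P and 4.98% ± 0.287 in WT (SD, n = 4). Across 17 alternative fits the log2 fold change ran from -0.38 to -0.31, and each had an adjusted p under 0.05, from 1.01e-09 with the replicate number as a block in DESeq2 to 0.0248 by edgeR. Within the 106 genes that passed and were lower in L192P, Rab15 had the 39th largest fall, beside their median log2 fold change of -0.29. Its place among all 253 genes that passed was 19th by adjusted p.

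No exon of Rab15 is shared with another gene, although the gene lies inside the span of Fntb on the other strand. Among its neighbours within 100000 bases, Fntb, encoding the beta subunit of protein farnesyltransferase, had a log2 fold change of -0.01 with an adjusted p of 0.994 by DESeq2. Churc1, a zinc finger gene, and Sptb, encoding erythrocytic beta spectrin, had -0.09 and 0.12, with adjusted p-values of 0.942 and 0.862. Neighbours were examined after the Rab15 value was known.

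Because Argonaute 2 reads target mRNAs through bases 2 to 8 of its miRNA, 3′ UTRs of Rab genes were searched for exact 7-base matches on the transcript strand. The study pictured Rab15 as a predicted miR-29-3p target, from a list chosen on these same libraries, so a match in Rab15 is a description and not independent support for its direction. The caption of the study's panel of targets names miR-29-3p, while its text on that panel names miR-92-3p. The mature miR-29-3p sequences (RefSeq table, GRCm38.p6) are shown with their shared seed in capitals, since that seed sets the site searched.
miR-29a-3p: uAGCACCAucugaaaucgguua
miR-29b-3p: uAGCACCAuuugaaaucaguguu
miR-29c-3p: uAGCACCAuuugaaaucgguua

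The 3′ UTR of the canonical Rab15 transcript (2283 bases, GENCODE M39, GRCm39) held sites for 4 of 11 seed families searched, and 3 further families matched with 6 bases. The miR-92-3p family was not among these, with 0 sites of either length. Each Rab15 site is printed below with the match in capitals, and with the miR-29 sites of Rab6b, Rab14 and Rab30, 3 members that carry the same letters with other values.
Rab15, miR-29-3p, chr12:76845830-76845856, minus strand: tggaaatactTGGTGCTgttctgcctt
Rab15, let-7-5p, chr12:76846187-76846213, minus strand: cctctgttctCTACCTCccatgcctct
Rab15, miR-9-5p, chr12:76846120-76846146, minus strand: gtctgaggacACCAAAGggcaagggga
Rab15, miR-30-5p, chr12:76844749-76844775, minus strand: taaacacaaaTGTTTACaaaataaaga
Rab6b, miR-29-3p, chr9:103060497-103060523, plus strand: cccacccatgTGGTGCTtgttggaaga
Rab14, miR-29-3p, chr2:35071403-35071429, minus strand: ctccactcctTGGTGCTggcagtgttt
Rab30, miR-29-3p, chr7:92485748-92485774, plus strand: tgactcttttTGGTGCTaatgattatg

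The miR-29 letters TGGTGCT were present in 8 of 55 tested Rab genes (14.5%) and in 2485 of 14897 tested genes with an annotated 3′ UTR (16.7%). The other members were Rab6b, Rab12, Rab14, Rab30, Rab38, Rab40c and Rab42. Rab15 at -0.34 was 1 of 8 with these letters, while Rab6b had a log2 fold change of -0.13, Rab14 of 0.005 (SE 0.057) and Rab30 of 0.13. The median over the 8 was 0.01, and over the members without the letters it was 0.02. Over all genes the medians were -0.010 with and 0.005 without. The let-7 letters CTACCTC were in 12.7% of Rab genes and 11.6% of all genes, the miR-9 letters ACCAAAG in 11 Rab genes of 55 and 15.5% of all genes, and the miR-30 letters TGTTTAC in 25.5% and 17.1%. Across the families searched, between 4 (miR-5121) and 19 (miR-128-3p) of the 55 Rab genes held a site. UTR length was not matched in these shares, and a match does not show that a miRNA binds there.

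Of the 55 Rab genes tested, 1 passed (1.82%), beside 1.36% of all genes tested. It was lower in L192P, as were 0.569% of all genes. With total-count scaling the 232 genes that passed were split 168 higher to 64 lower, against 147 to 106, and Rab15 was again the only Rab gene among them. An unadjusted p under 0.05 was found for 7 Rab genes (12.7%), 4 higher and 3 lower, beside 9.44% of all genes, and for 4 higher and 1 lower with total-count scaling. The groups did not overlap for 4 Rab genes (7.27%), Rab15, Rab5b, Rab4a and Rab39, beside 5.97% of all genes. These shares were near the background. The median log2 fold change of the 55 was 0.02, against 0.002 over all genes, and the median of its absolute value 0.053 against 0.105. Expression level was not matched here, and genes with few counts have less precise fold changes. Of the members 34 were above 0 and 21 below, with total-count scaling 41 and 14, and with TMM scaling 31 and 24. All genes tested moved too, with 9418 above 0 and 9209 below. With total-count scaling these were 11379 and 8469, and with TMM scaling 9016 and 9611. For 37 of the 55 Rab genes the whole 95% interval lay within 0.32 of 0 on the log2 scale, beside 8094 of the 18627 genes tested. For 17 Rab genes that did not pass, the interval reached beyond 0.32. Of the 54 Rab genes that did not pass, 46 had an interval entirely above the Rab15 value, and the other 8 had intervals that reached it. That value is itself an estimate, with an interval of -0.45 to -0.23, so these counts are no test of a difference from Rab15.

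**Figure D1:**
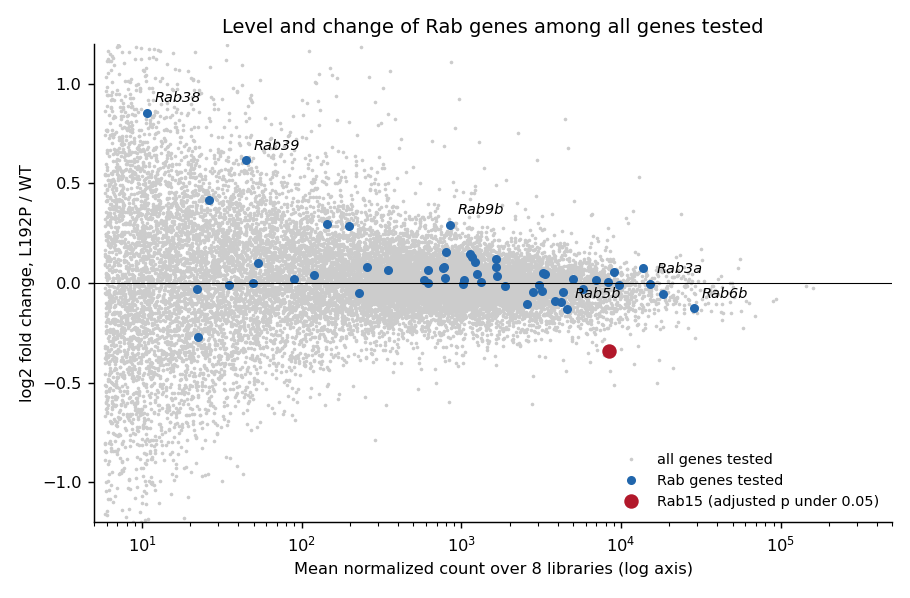
Log2 fold change (L192P over WT, vertical axis) against the mean normalized count over 8 libraries (horizontal log axis) for the 55 Rab genes tested (blue, Rab15 red) and all 18627 genes tested (grey, those past the vertical range not drawn). Rab15 lies below the other well-expressed Rab genes, and members with few counts spread most.

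Libraries of both genotypes also differed in markers of brain regions and neurons. The summed level of 8 cortical excitatory neuron markers was 37985 to 42741 normalized counts in L192P and 43277 to 45560.4 in WT. These sums lay narrowly apart, and the most abundant marker made up most of each. Taken singly, each of the 8 overlapped between the genotypes. None of those 8 passed in DESeq2, and their median log2 fold change was -0.18. The sum of 6 striatal markers was 20921 to 26211 in L192P and 26728 to 32198 in WT. The sum of 6 thalamic markers was 3287 to 6799 against 2346 to 2915, with Calb2, encoding calretinin, higher. The sum of 6 hypothalamic markers was 189 to 1166 against 84.3 to 177, with the neuropeptide genes Avp and Oxt higher. Of 6 interneuron markers Gad2, a GABA-synthesizing enzyme gene, was higher, while the sums overlapped. The sums of astrocyte, oligodendrocyte, microglia, endothelial, hippocampal, choroid plexus and erythroid markers overlapped and 0 of their genes passed. Rab15 moved in the direction of the excitatory and striatal sums, and the part of tissue makeup in its difference was not tested.

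The Rab proteins most identical to Rab15 in the annotated coding sequences are Rab10 (48.4%), Rab8b (46.3%) and Rab8a (46.2%), which carry vesicles to the cell surface and the cilium. Rab10 had 4302, 4348, 4227 and 4258 normalized counts in L192P and 4499, 4248, 4466 and 4445 in WT, with overlapping groups. Its log2 fold change was -0.04 with an SE of 0.048. Rab8b and Rab8a had log2 fold changes of 0.08 (SE 0.083) and 0.04 (SE 0.066), and the intervals of all 3 lay above the Rab15 value.

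Among Rab genes of recycling endosomes, 7 of 9 were tested, 1 passed and the median log2 fold change was -0.009, with Rab15 and Rab4a at its extremes. Rab4a, which returns receptors to the surface by the fast route, had 1266, 1164, 1192 and 1157 normalized counts in L192P and 1144, 1007, 1118 and 1058 in WT. Every L192P library was above every WT library. The log2 fold change of 0.15 (SE 0.072) did not pass, with a DESeq2 adjusted p of 0.489. Exons of Ccsap lie on the other strand of Rab4a, and whether reads were counted by strand is not given in the sources used here.

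The 8 Rab genes of regulated exocytosis were all tested and 0 passed. Their median log2 fold change was 0.11, with 7 above 0, and 8 above 0 with total-count scaling. That scaling also raised the median of all genes, from 0.002 to 0.026. Rab3a, measured most precisely here, had 15622, 15264, 14599 and 14918 normalized counts in L192P and 15420.2, 15239.5, 15165 and 14688 in WT. Its groups overlapped throughout, with a log2 fold change of -0.0026 (SE 0.046, 95% interval -0.09 to 0.09). Its relatives at synapses and secretory granules, Rab3b, Rab3c and Rab3d, had log2 fold changes of 0.12 (SE 0.11), 0.08 (SE 0.091) and 0.08 (SE 0.12). Rab3c spread widest among the WT libraries, from 11738 to 16081 normalized counts, with WT replicate 1 the highest.

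Rab27a, which docks secretory granules and multivesicular bodies at the plasma membrane, had 238, 208, 239.8 and 181 normalized counts in L192P and 215, 164, 169 and 163 in WT. The groups overlapped through WT replicate 1. The log2 fold change was 0.29 (SE 0.15) with a DESeq2 adjusted p of 0.517. Rab37, a Rab of secretory granules, had the highest value of the group, 0.30, with an SE of 0.49. Its L192P libraries ran from 53.9 to 269.8 normalized counts, around the WT range of 94.7 to 156.

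**Figure D2:**
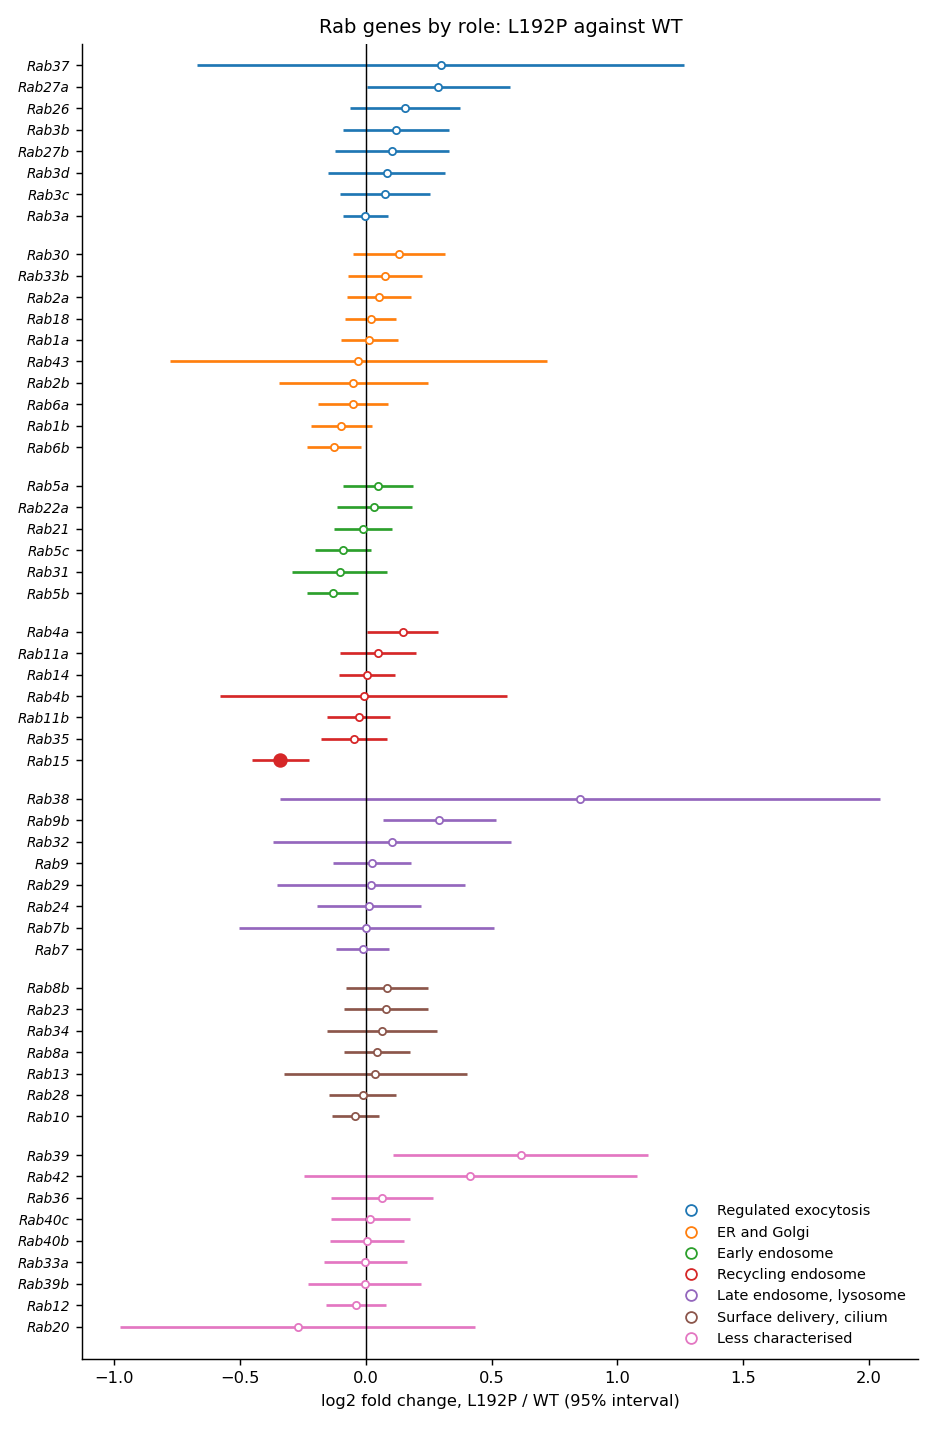
Log2 fold change, L192P over WT, with its 95% interval (horizontal axis) for the 55 Rab genes tested, grouped and coloured by role, the filled point marking an adjusted p under 0.05. Rab15 at -0.34 is the filled point, and long bars belong to members with few counts such as Rab38.

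Of 10 Rab genes of the endoplasmic reticulum and Golgi, 0 passed, with a median log2 fold change of -0.009. The lowest was Rab6b, the neuron-rich form of Rab6, with 28703, 26959, 25769.7 and 28138 normalized counts in L192P and 29365, 28633, 30453 and 31257 in WT. The highest L192P library lay just above the lowest WT library. The log2 fold change was -0.13 (SE 0.055) with a DESeq2 adjusted p of 0.358. The widely expressed Rab6a had -0.05 (SE 0.071) and Rab2a 0.05 (SE 0.064). At the other end was Rab30, a Golgi Rab, at 0.13 (SE 0.093), with 1131 to 1299 normalized counts in L192P and 926 to 1204 in WT.

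The early endosome group held 6 tested genes, 0 of which passed, with a median of -0.05. Rab5b, 1 of the 3 Rab5 genes that drive endosome fusion, had 4582, 4397, 4268 and 4225 normalized counts in L192P and 4836, 4641, 4776 and 4895 in WT. All L192P libraries lay below all WT libraries, by a log2 fold change of -0.13 (SE 0.052) with a DESeq2 adjusted p of 0.26. Rab5a, its close relative, had 0.05 (SE 0.071) with 3083 to 3687 and 3057 to 3388 normalized counts.

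None of the 8 Rab genes of late endosomes and lysosomes passed, and their median was 0.02. Rab9b, an X-linked relative of the Rab that returns receptors from late endosomes to the Golgi, had 987, 872, 913 and 970.3 normalized counts in L192P and 937, 665, 814 and 644 in WT. WT replicate 1, the WT library with Ddx3y counts, sat among the L192P libraries and the other WT libraries below them. The log2 fold change was 0.29 (SE 0.11), with a DESeq2 adjusted p of 0.26. With the replicate number as a block it was 0.30 with an adjusted p of 0.0416. Without WT replicate 1 it was 0.41, adjusted p 0.00402 by DESeq2, and in the libraries numbered 2 to 4 it was 0.38, adjusted p 0.0155. The other 14 of 17 alternatives left it above 0.05. Rab7 had the lowest value of the group, -0.01 (SE 0.054), with 9354 to 10055 normalized counts in L192P and 9244 to 10247 in WT.

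**Figure D3:**
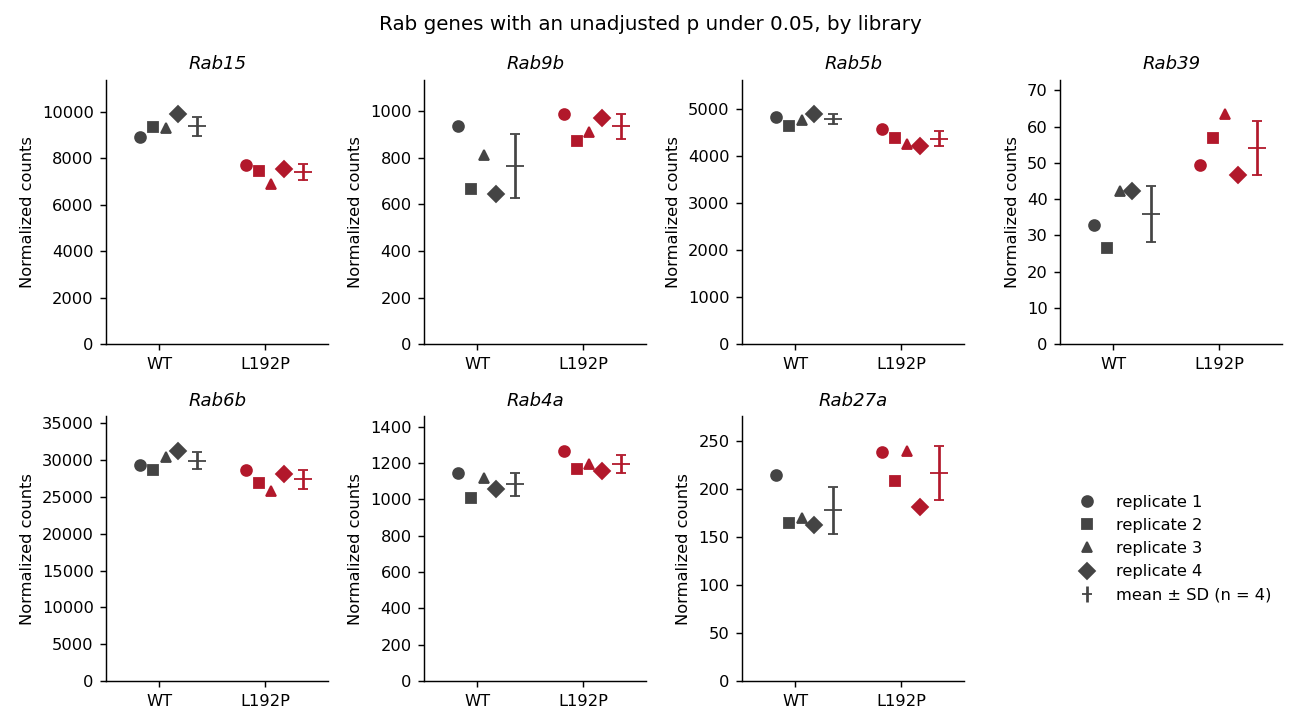
Normalized counts (vertical axes, from 0) of the 7 Rab genes with an unadjusted p under 0.05, by library, with 4 WT (grey) and 4 L192P (red) libraries, the marker shape giving the replicate number and the bar the mean ± SD. The groups are apart for Rab15, Rab5b, Rab4a and Rab39, and WT replicate 1 lies nearest to the L192P libraries for Rab9b.

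Rab genes of surface delivery and the cilium gave 0 of 7 passing and a median of 0.04, between Rab10 and Rab8b. The less characterised group gave 0 of 9 tested and a median of 0.005. Its member Rab39, linked to endosomes and autophagy, had 49.5, 56.9, 63.4 and 46.7 normalized counts in L192P and 32.8, 26.5, 42.4 and 42.1 in WT. The groups were apart but close. The log2 fold change was 0.62 (SE 0.26) with a DESeq2 adjusted p of 0.334. Among those with a mean of at least 50, Rab36, a Golgi and lysosome Rab, was highest at 0.07 (SE 0.10) and Rab12, a substrate of LRRK2, was lowest at -0.04 (SE 0.061).

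**Figure D4:**
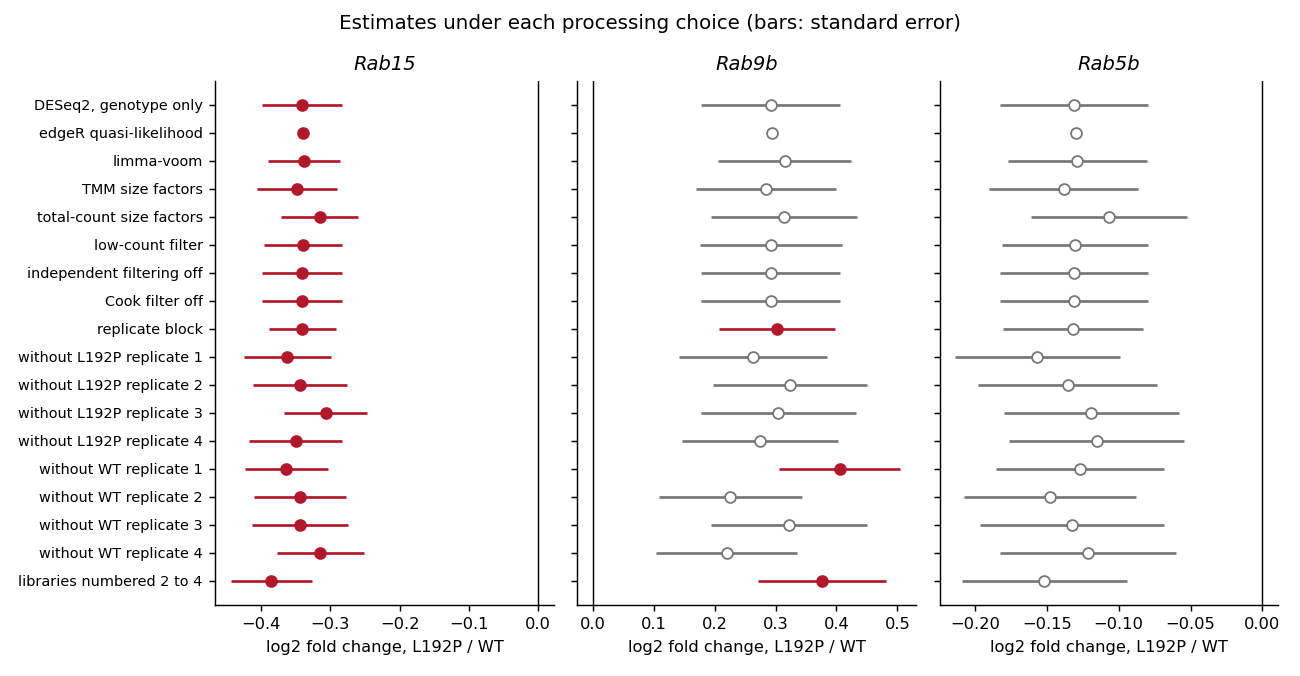
Log2 fold change, L192P over WT, with SE (horizontal axes) of Rab15, Rab9b and Rab5b under DESeq2 and 17 alternatives (rows), filled where the adjusted p was under 0.05 and without a bar for edgeR, which gives no SE. Rab15 is filled in every row, Rab9b in 3 and Rab5b in 0.

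The genes that act on or with Rab proteins were read from a list of 146, of which 144 were tested and 2 passed (1.39%), beside the same 1.36% of all genes. An unadjusted p under 0.05 was found for 18 (12.5%), beside 9.44% of all genes. These were 6 higher and 12 lower, and with total-count scaling 7 higher and 5 lower. The median log2 fold change was -0.0002. The groups did not overlap for 8 of the 144 (5.56%), beside 5.97% of all genes, a share near the background. Ppm1h, the phosphatase that reverses LRRK2 phosphorylation of Rab8a and Rab10, had 2509, 2579.8, 2672 and 2639 normalized counts in L192P and 2855, 3063, 2992 and 3130.4 in WT. The groups were apart, and Ppm1h fell by 0.21 on the log2 scale (SE 0.056) with a DESeq2 adjusted p of 0.0188, passing in 8 of 17 alternatives and not by edgeR or limma-voom. Sytl4, encoding granuphilin, a Rab27 effector on secretory granules, had 35.5, 9.10, 20.8 and 26.4 normalized counts in L192P and 4.55, 6.78, 7.60 and 7.02 in WT. All L192P libraries were above all WT libraries at these low counts. It rose by a log2 fold change of 1.83 (SE 0.51), and the DESeq2 adjusted p was 0.029. The sum of 6 hypothalamic markers was 743, 189, 1166 and 577 in L192P replicates 1 to 4 and 84.3 to 177 in WT. Like Sytl4, it was lowest in replicate 2 among the L192P libraries. The part of tissue makeup in the Sytl4 difference was not tested. Of 15 alternatives that gave a log2 fold change for Sytl4, 5 had an adjusted p under 0.05.

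With the replicate block 3 of 129 listed genes tested passed, Ppm1h among them. The number of all genes passing rose as well, from 253 to 533. Eea1, the tether that Rab5 recruits to early endosomes, had 1577, 1302, 1411 and 1348 normalized counts in L192P and 1286, 924, 1104 and 1161 in WT. Its groups did not overlap, and its log2 fold change of 0.34 had a DESeq2 adjusted p of 0.0692, and 0.000413 with the block. Mical2, of the MICAL family of actin oxidoreductases listed as Rab effectors, had -0.23, with adjusted p-values of 0.131 and 0.000624 by DESeq2 without and with the block. Against 253 genes passing in all libraries, 500 passed in those numbered 2 to 4, among them 6 of the 138 listed genes tested. There Ppm1h had a log2 fold change of -0.22 (adjusted p 0.0158 by DESeq2), Eea1 of 0.35 (0.00995) and Mical2 of -0.22 (0.0252). The Rab effectors Sytl2, Myrip and Osbpl1a had -0.32 (0.00348), -0.23 (0.0496) and -0.21 (0.0469), against -0.18, -0.15 and -0.15 in all libraries, where none of those 3 passed. Sytl4, at 1.39, had no adjusted p there. Eea1, Mical2, Sytl2, Myrip and Osbpl1a were named because an alternative changed their call.

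The named partners of most Rab proteins and of Rab15 did not pass. Gdi2, encoding a GDP dissociation inhibitor, had a log2 fold change of 0.04. Rabif, a chaperone of nucleotide-free Rab proteins, had -0.03, and Rep15, the Rab15 effector, had 0.19, with DESeq2 adjusted p-values of 0.979 and 0.969. By class, 0 of 8 prenylation factors and chaperones, 0 of 39 exchange factors and 0 of 34 GTPase-activating proteins passed, along with 1 of 60 effectors (Sytl4) and 1 of 3 kinases and phosphatases (Ppm1h). In the same order of classes, an unadjusted p under 0.05 in DESeq2 was found for 2, 4, 2, 8 and 2 genes, beside the 9.44% of all genes. Of 5 Rab-like genes outside the symbol rule, 0 passed and 0 had an unadjusted p under 0.05.

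**Figure D5:**
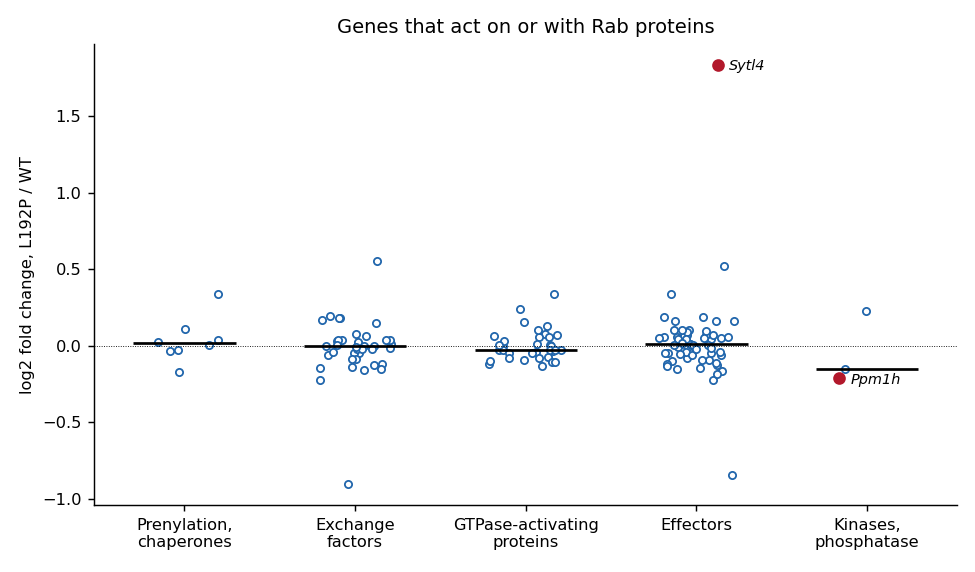
Log2 fold change, L192P over WT (vertical axis), of the 144 tested genes that act on or with Rab proteins, by class, with black bars for the median of each class and filled points for an adjusted p under 0.05. Most lie close to 0, and Sytl4 at 1.83 and Ppm1h at -0.21 are the filled points.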

How the data were processed

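Polyadenylated RNA was sequenced in 4 L192P and 4 WT cortex libraries. According to the submitters' notes, the authors aligned the reads with STAR 2.7.9a and counted them per gene with featureCounts 1.5.1. The methods of the study name another version of STAR. They deposited raw counts, which are the unit of every test here, and counts divided by size factors, which were not used. The strand setting is not given in the sources used here. The genes, lists and tests were chosen with earlier results of these data known.

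DESeq2 1.42.0 (R 4.3.3) was fitted to the whole count table on genotype alone, with its default size factors and filters, which left 14037 genes (independent filtering) and 12 (Cook) without an adjusted p. A gene passed at a Benjamini-Hochberg adjusted p under 0.05. Tool and threshold follow the study. The alternatives were edgeR 4.0.16 and limma-voom 3.58.1, TMM or total-count scaling, a low-count filter (10 counts in 4 or more libraries), independent or Cook filtering off, the replicate number as a block, leaving out each library, and the libraries numbered 2 to 4. The programs were tested on simulated data.

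Deviations from the group means over 13422 genes correlated at 0.628, 0.381, 0.233 and 0.327 between same-numbered libraries and at -0.375 to 0.144 between others, so the numbers were taken as pairing the libraries. The main fit on genotype alone does not use this pairing. Fitted with it, as the replicate block, 533 genes passed against 253. No 2 libraries of a genotype agreed within sampling noise (chi-square per degree of freedom 5.52 to 22.6). Library depth of at least 20396357 counts leaves the fold changes of genes with few counts imprecise.

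Named with values were Rab genes with an adjusted or unadjusted p under 0.05, the 5 highest per kilobase, the 4 Rab3 genes, the 3 proteins nearest to Rab15, the highest and lowest log2 fold change of each role group among members with a mean of at least 50, regulators that passed, Gdi2, Rabif, Rep15 and Ago2. Other genes are named with lists or with the reason given. Gene models, 3′ UTRs and protein sequences came from GENCODE M39 on GRCm39, which held all 59 Rab genes. Proteins were translated and aligned with Biopython 1.88. miR-124-3p was not used. Genes that the rule or a marker list also named but that are withheld are not reported here.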

Additional observations from a re-analysis of the deposited data

Results flagged for a closer look

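Of 56 groups of 4 libraries screened over the named genes, 1 held a library far from the others, where chance gives about 1 in 20 groups (2.8 here). Rab27a had 214.9 normalized counts in WT replicate 1 and 162.7 to 169.5 in the other WT libraries, a gap that took a share of 0.871 of the range of the group.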

How the results depend on the processing

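Rab15 stayed lower and under 0.05 in 17 of 17 alternatives. Counts moved with the model. All genes passing numbered 253 by DESeq2, 53 by edgeR, 45 by limma-voom, 533 with the replicate block, 500 in the libraries numbered 2 to 4, and 112 to 496 with 1 library left out. Rab genes passing numbered 1, and 2 (Rab15 and Rab9b) with the replicate block, without WT replicate 1 (range 1 to 2 with 1 library left out) and in the libraries numbered 2 to 4. Among Rab regulators 2 passed by DESeq2 and 0 by edgeR and limma-voom, where 16 and 17 had an unadjusted p under 0.05. Ppm1h alone (1) passed with independent filtering off, 6 in the libraries numbered 2 to 4, and 0 to 3 with 1 library left out. The 0 came without L192P replicates 1, 3 or 4 and without WT replicates 2, 3 or 4. Of the 47 Rab genes with an adjusted p under the replicate block, the pairing changed the call of Rab9b alone, and 8 tested members had none there. Counting 6-base in place of 7-base sites, the Rab15 3′ UTR matched 7 families. The sign of the log2 fold change turned in 4 alternatives for Rab3a, 3 for Rab7 and 1 each for Rab5a, Rab36, Rab37, Rep15 and Rabif, none of which passed. The cause of these differences was not tested. Depth limits the 9 tested Rab genes with a mean under 100 normalized counts and the 4 that were not tested.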
